A study of Mus musculus with 67 samples.

Results

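The genes described are 6 matrix metalloproteinases (Mmp2, Mmp3, Mmp9, Mmp10, Mmp13 and Mmp14) and 3 tissue inhibitors of metalloproteinases (Timp1, Timp2 and Timp3). They were taken by name, 9 of the 39179 gene rows in the deposited table, and followed through 67 single cells. The cells were cultured vascular smooth muscle cells, the contractile cells of the vessel wall, from the descending aorta of male C57Bl6 mice aged 3 to 4 months. They were kept in DMEM with 10% fetal bovine serum and 1% antibiotic and left alone for 5 days. Passage 1 is represented by 22 cells, and passage 2, obtained by trypsin treatment and subculture of passage 1, by 45. Each cell was 1 library made on a microfluidic capture system. No agent or mutation was applied, and all cells had been cultured.

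Matrix metalloproteinases are zinc enzymes that cut proteins of the extracellular matrix. Most are secreted as inactive precursors, and Mmp14 is held in the cell membrane, where with Timp2 as an adaptor it activates the precursor of Mmp2. The Timp proteins bind active metalloproteinases and block them, and Timp3 itself binds to the matrix. In the vessel wall, the balance of proteases and inhibitors is known for its part in remodelling of the matrix and in smooth muscle cell migration.

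No label ties a cell to an animal or culture, so each passage counted as 1 sample. No test of a difference between passages was made, and every SD below is a spread over cells. All passage 1 libraries carry another prefix than all passage 2 libraries, so passage and library set cannot be told apart. The passage 1 cells had 817021 to 1561129 reads each (median 8477.5 genes) and the passage 2 cells 548419 to 1509589 (median 7257 genes). At least 3 of 10 smooth muscle markers reached a normalized count of 10 in 19 of 22 and 45 of 45 cells. At least 3 of 10 endothelial markers did so in 5 and 2 cells, at least 3 of 10 fibroblast markers in 18 and 36, and at least 3 of 10 macrophage and neutrophil markers in 1 and 0. Values are normalized counts, that is, gene counts scaled by the authors with 1 size factor for each cell. Cells are numbered within a passage for naming only.

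The sequences before the starts of the 3 secreted proteases encoded in 1 cluster on chromosome 9 are shown first, because 1 of them was read in part of the cells and the other 2 hardly at all. Each line holds the 250 bases before the start that RefSeq annotates, 5′ to 3′ on the plus strand of GRCm38.p6. The windows are chr9:7445572-7445821 for Mmp3, chr9:7502092-7502341 for Mmp10 and chr9:7272264-7272513 for Mmp13. Capitals mark TGANTCA, the letters of an AP-1 site (its own reverse complement), and TATAAA on the plus strand.
Mmp3: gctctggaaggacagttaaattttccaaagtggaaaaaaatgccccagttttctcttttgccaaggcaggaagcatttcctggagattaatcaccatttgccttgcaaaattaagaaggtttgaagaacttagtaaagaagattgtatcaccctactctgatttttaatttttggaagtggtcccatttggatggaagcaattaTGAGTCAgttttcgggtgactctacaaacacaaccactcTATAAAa
Mmp10: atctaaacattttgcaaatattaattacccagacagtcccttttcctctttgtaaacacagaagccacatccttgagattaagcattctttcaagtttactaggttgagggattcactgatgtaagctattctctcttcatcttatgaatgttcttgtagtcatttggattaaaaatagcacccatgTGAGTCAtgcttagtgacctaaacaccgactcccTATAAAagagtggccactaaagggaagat
Mmp13: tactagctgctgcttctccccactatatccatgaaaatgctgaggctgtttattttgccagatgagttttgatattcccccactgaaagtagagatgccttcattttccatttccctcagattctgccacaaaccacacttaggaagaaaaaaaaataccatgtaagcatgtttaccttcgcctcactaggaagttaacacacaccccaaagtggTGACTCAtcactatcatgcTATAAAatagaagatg
All 3 windows held both motifs. TGAGTCA stood 46 to 40 bases before the start of Mmp3 and 63 to 57 bases before that of Mmp10, and TGACTCA 35 to 29 bases before that of Mmp13. Of 32851 promoter windows of this length, 6.75% held TGANTCA and 12.4% TATAAA, searched on both strands. Mmp14, Timp1, Timp2 and Timp3 had no TGANTCA in their windows, and each had GGGCGG, the letters of a GC box, which 32.7% of all windows held on either strand. Mmp14 had 2 copies and each inhibitor 1. Their windows were also richer in G and C, at 55.2% (Mmp14), 54.4% (Timp1), 68% (Timp2) and 65.6% (Timp3), against 37.6% (Mmp3), 37.2% (Mmp10) and 40.4% (Mmp13). A match of letters is a description of the window and shows no binding. Promoters of 7 of the 9 genes were matched, with Mmp2 and Mmp9 missing.

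Of the 9 genes, 6 passed a filter on low values (mean normalized count 10 or more in either passage, with reads in 25% or more of that passage's cells), and Mmp3 passed it through passage 1, where it was high. The log2 ratio compares log2(mean + 1) of passage 2 with that of passage 1 and understates differences of low genes. A ratio past 1 either way is called past 2-fold. None of the 6 was past 2-fold higher at passage 2, and 1 (Mmp3) was past 2-fold lower. Among all 8682 genes that passed the filter, 14.4% were past 2-fold higher and 19.4% past 2-fold lower, and the median log2 ratio was -0.11. The median was -0.26 for the 3 proteases and -0.13 for the 3 inhibitors.

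Mmp2, gelatinase A, which degrades denatured collagen and basement membrane collagen (ENSMUSG00000031740, chromosome 8, 92827291 to 92853420 in GRCm38, as for all positions of genes here), was read in part of the cells of both passages. Normalized counts ran from 0 through a median of 20.3 to 375 at passage 1, and from 0 through a median of 1.16 to 1307 at passage 2. The ranges overlapped, the typical passage 2 cell was lower, and the highest cell of all belonged to passage 2. Means were 79.9 ± 114 (SD, 22 cells) and 66.7 ± 203 (SD, 45 cells), a log2 ratio of -0.26. When each passage 1 cell was paired with each passage 2 cell, the former was higher in 55.9% of pairs and the latter in 33.8%. Passage 2 cell 2 alone held 43.5% of the passage 2 sum, and without it the log2 ratio was -1.03. Without passage 1 cell 15 it was 0.02. It was 0.93 after removal of cycling cells, those with Mki67 or Top2a (genes of dividing cells) at 10 or more, which left 6 and 35 cells. The 35 still held passage 2 cell 2, at 1307. Medians of the remaining cells went the other way, at 9.96 for passage 1 and 0.968 for passage 2. The direction for Mmp2 therefore rests on which cells are counted. A value of 10 was reached in 13 of 22 cells (59.1%, exact Clopper-Pearson 95% interval 36.4 to 79.3) and 16 of 45 (35.6%, 21.9 to 51.2). These intervals treat cells as independent draws and hold no variation between cultures, so they do not compare the passages.

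Mmp3, stromelysin 1, which cuts proteoglycans, fibronectin and other proteases' precursors (ENSMUSG00000043613, chromosome 9, 7445822 to 7455975), was the member whose means differed most. At passage 1 it ran from 0 through a median of 0 to 551, and at passage 2 from 0 through a median of 0 to 133. Most cells of both passages were at or near 0, and the means rest on 5 cells of passage 1 and 1 of passage 2. The 5 were passage 1 cells 1 (74.8), 7 (197), 8 (379), 10 (551) and 15 (168). Passage 2 cell 21 held 96.8% of the passage 2 sum, and the next highest passage 2 cell was at 1.88.

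Mean Mmp3 was 62.8 ± 144 (SD, 22 cells) and 3.05 ± 19.8 (SD, 45 cells), a log2 ratio of -3.98. It moved to -5.86 without passage 2 cell 21 and to -3.32 without passage 1 cell 10, and was 0 with medians over cells. Summed reads were 2110 and 112, or 29.5-fold lower at passage 2 per total reads (exact 95% interval 24.4 to 36). The interval of reads treats reads as independent, and PCR reads without molecular identifiers are not independent molecules, so it is too narrow. Intervals of shares treat cells as independent draws. Neither kind covers variation between cultures. At passage 1, 22.7% of cells reached a value of 10 (7.82 to 45.4), and at passage 2, 2.22% did (0.0562 to 11.8). A read was present in 45.5% and 11.1% of cells, and in 36.4% and 6.67% after thinning each cell to 500000 reads. In a list of 15 lymphocyte, erythroid and striated muscle genes, Lck had the greatest share of passage 1 cells with a read (31.8%) and Cd3d that of passage 2 cells (33.3%), with 9.09% and 8.89% at a value of 10 (Lck). The passage 2 shares of Mmp3 therefore lie within this background, while its passage 1 shares are higher than the highest of these genes, although their intervals (24.4 to 67.8 with a read) include 31.8% and 9.09%, and after thinning the share of Lck was again 31.8%. One of the 5 passage 1 cells, cell 8, was also the passage 1 cell with 3 of the 10 macrophage and neutrophil markers at 10. Without the endothelial marker cells the log2 ratio of Mmp3 was -4.29.

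Mmp9, gelatinase B (ENSMUSG00000017737, chromosome 2, 164940780 to 164955850), and Mmp10, stromelysin 2 (ENSMUSG00000047562, chromosome 9, 7502352 to 7510240), had no read in any cell. Taken as 3 cells of 22 or 45, a count of 0 allows a share of cells with a read of up to 13.6% at passage 1 and 6.67% at passage 2. Mmp13, collagenase 3 (ENSMUSG00000050578, chromosome 9, 7272514 to 7283331), had 1 read, in passage 2 cell 2. These 3 genes were not detectable at this depth beyond that read, and Mmp9 is a gene known from neutrophils and macrophages. Of the 10 macrophage and neutrophil markers, S100a8, S100a9, Ly6g, Adgre1 and Fcgr1 had no read either. The other 5 were read, Csf1r in 15 of 22 and 17 of 45 cells, Cd68 in 4 and 7, Lyz2 in 3 and 2, Itgam in 2 and 2, and Cd14 in 1 and 0.

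Mmp14, the membrane-bound protease MT1-MMP (ENSMUSG00000000957, chromosome 14, 54431612 to 54445364), was the protease read in most cells. It ran from 0 through a median of 41.3 to 375 at passage 1 and from 0 through a median of 56.7 to 695 at passage 2. The ranges overlapped almost wholly, with the highest cell in passage 2. Means were 78.6 ± 94.2 (SD, 22 cells) and 101 ± 132 (SD, 45 cells), a log2 ratio of 0.36, with the higher value in the passage 2 cell in 53.7% of pairs. Without the cycling cells, which left 6 and 35 cells, the log2 ratio was -0.18. The 6 included passage 1 cell 5, the highest passage 1 cell at 375, and the medians of these cells were 56.1 and 40.2. A value of 10 was reached in 18 of 22 cells (81.8%, 59.7 to 94.8) and 34 of 45 (75.6%, 60.5 to 87.1).

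Timp1, the secreted inhibitor of many metalloproteinases (ENSMUSG00000001131, chromosome X, 20870166 to 20874735), reached a value of 10 in 22 of 22 and 43 of 45 cells. It ran from 52.3 through a median of 358 to 2124 at passage 1 and from 1.45 through a median of 207 to 1601 at passage 2. The passages overlapped over most of their range, and the lowest cells belonged to passage 2. Means were 496 ± 476 (SD, 22 cells) and 318 ± 343 (SD, 45 cells), a log2 ratio of -0.64, and the passage 1 cell was higher in 65.4% of pairs. The sign was negative under the 10 settings of scaling, cells, pseudocount and summary tried, between -0.94 and -0.02. The value nearest 0 came without the cycling cells.

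Timp2, the inhibitor that also serves as adaptor of Mmp14 and the Mmp2 precursor (ENSMUSG00000017466, chromosome 11, minus strand, 118301069 to 118355740), was read in every one of the 67 cells. It ran from 144 through a median of 518 to 1227 at passage 1 and from 123 through a median of 641 to 2706 at passage 2. The low ends were alike and the passage 2 values reached higher. Means were 549 ± 297 (SD, 22 cells) and 828 ± 604 (SD, 45 cells), a log2 ratio of 0.59, and the passage 2 cell was higher in 63.5% of pairs. Across the same 10 settings the ratio was positive, between 0.30 and 0.70. Timp2 was the most even of the members detected in most cells, with a coefficient of variation of 0.541 and 0.730, against 1.14 in each passage for Timp3.

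Timp3, the matrix-bound inhibitor (ENSMUSG00000020044, chromosome 10, 86300372 to 86349506), had the widest range of the inhibitors. It ran from 11.4 through a median of 1316 to 9205 at passage 1 and from 5.00 through a median of 1106 to 8033 at passage 2. The passages overlapped almost wholly. Means were 2159 ± 2467 (SD, 22 cells) and 1969 ± 2237 (SD, 45 cells), a log2 ratio of -0.13, close to the median of all genes. With TMM scaling it was 0.04, where the median of all genes moved to 0.00, and it was 0.11 without passage 1 cell 5 and 0.08 without passage 1 cell 10.

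Values of Timp3 carry a further limit. The gene lies within Syn3, a synapsin gene on the opposite strand (chromosome 10, 86055125 to 86498896), and 1733 exon bases, 21.3% of the Timp3 exon union, are shared. Syn3 averaged 1259 at passage 1 and 1279 at passage 2, and across cells its Spearman correlation with Timp3 was 0.98 in each passage (22 and 45 cells). Whether strand was used in counting is not given in the sources used here, so reads of these genes cannot be told apart. Timp1 lies within Syn1 on the opposite strand without shared exon bases, and Syn1 averaged 1.52 and 1.64.

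**Figure D1:**
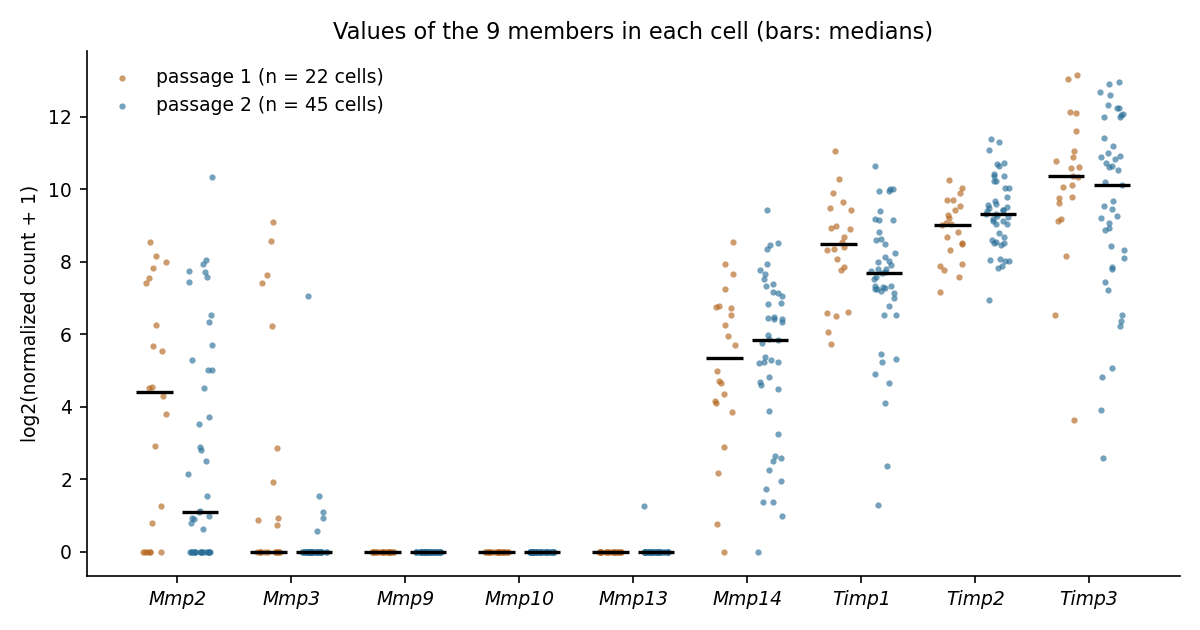
Normalized counts of the 9 members per cell on a log2(value + 1) axis, passage 1 (22 cells) beside passage 2 (45 cells), with 1 point per cell and the median as a line. Timp1, Timp2 and Timp3 lie above 0 in every cell, Mmp14 in most cells, Mmp2 in part, Mmp3 in few, and Mmp9, Mmp10 and Mmp13 at or next to 0.

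**Figure D2:**
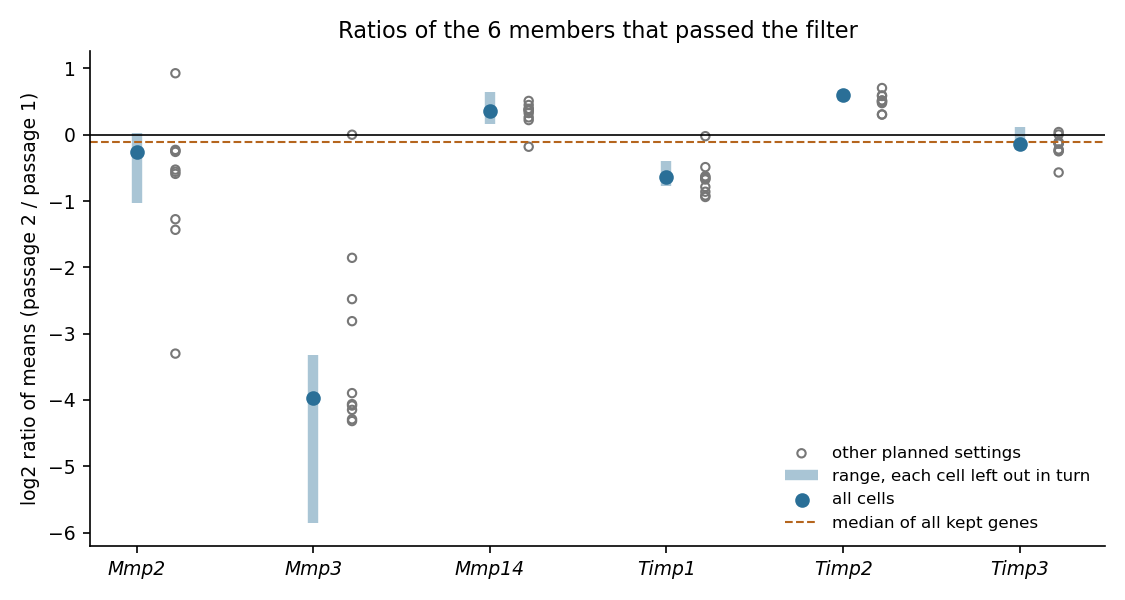
The log2 ratio of passage 2 over passage 1 for the 6 members that passed the filter, under the deposited scaling (filled points), with each cell left out in turn (bars, range) and under the other settings (open points), with a dashed line at the median of all kept genes. Timp1 is below 0 and Timp2 above 0 under each setting drawn, while Mmp2, Mmp14 and Timp3 lie on both sides of 0, and Mmp3 runs from -4.32 to 0 over the other settings and from -5.86 to -3.32 with a cell left out.

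Per kilobase of exon union, the 3 inhibitors stood above the 3 detected proteases in both passages. At passage 1 mean normalized counts per kilobase were 559 ± 537 (Timp1), 265 ± 303 (Timp3), 141 ± 76.2 (Timp2), 34.9 ± 79.7 (Mmp3), 23.7 ± 34 (Mmp2) and 13.2 ± 15.8 (Mmp14). At passage 2 they were 358 ± 386 (Timp1), 242 ± 275 (Timp3), 213 ± 155 (Timp2), 19.8 ± 60.3 (Mmp2), 17 ± 22.1 (Mmp14) and 1.69 ± 11 (Mmp3). Most neighbours within the inhibitors and within the proteases differ by less than the SDs over cells of both genes. The exceptions are Timp3 and Timp2 at passage 1, which differ by more than the SD of Timp2, and Mmp14 and Mmp3 at passage 2, which differ by more than the SD of Mmp3 (11). The order also depends on the length used. With the longest transcript in place of the exon union, the passage 2 means per kilobase were 417 for Timp3 and 360 for Timp1, and 31.2 for Mmp14 and 21.7 for Mmp2.

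The protease to inhibitor balance was described per cell as the protease share, the summed Mmp level per kilobase as a percentage of the summed Mmp and Timp levels per kilobase. It compares transcripts and does not measure enzyme activity. At passage 1 the share ran from 0% through a median of 5.56% to 14.1%, and at passage 2 from 0.0124% through a median of 2.60% to 35.8%. The inhibitor sum exceeded the protease sum in 22 of 22 and 45 of 45 cells, also with the longest transcript and with values not divided by length. The typical passage 2 cell had the lower share, while the widest range, with the lowest share above 0 and the highest share, was at passage 2.

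The difference of the median shares was -2.96 percentage points, smaller than the pooled SD over cells of 6.60, and the passage 2 cell was lower in 64.7% of cell pairs. Means were 6.34 ± 4.32% and 5.37 ± 7.44%. Shares under 1% were found in 2 of 22 and 11 of 45 cells, and shares above 10% in 4 and 7. Median protease levels per kilobase were 47.1 and 18.4, and median inhibitor levels 766 and 594. The difference of medians was -1.05 with Mmp2 and Mmp14 as the proteases, -1.11 without the cycling cells, and -7.37 with Timp2 and Timp3 as the inhibitors.

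Cycling cells made up 16 of 22 cells at passage 1 and 10 of 45 at passage 2. Their median protease share was 6.48% against 3.63% in the other cells at passage 1, and 3.75% against 2.52% at passage 2. In both passages the cycling cells had the higher median, and the difference of medians without them was the -1.11 given above. Median Mmp2 in the cycling cells was 22.1 against 9.96 in the other cells at passage 1 and 9.16 against 0.968 at passage 2. Median Mmp14 had no single direction, at 28.1 against 56.1 at passage 1 and 86.8 against 40.2 at passage 2.

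**Figure D3:**
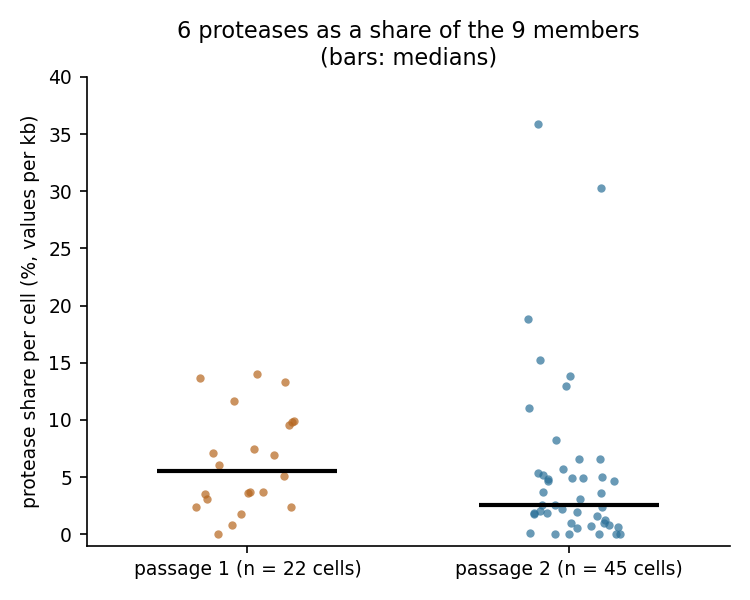
Protease share per cell (percent of summed Mmp and Timp levels per kilobase of exon union) for 22 passage 1 and 45 passage 2 cells, with 1 point per cell and bars at the medians. Medians are 5.56% and 2.60%, and the 2 passages overlap, with the highest passage 2 cell at 35.8%.

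Mmp14 was the leading protease per kilobase in 7 of 22 passage 1 cells and in 33 of 45 passage 2 cells. No member protease reached a value of 10 in 1 passage 1 cell and 7 passage 2 cells. Those 7 count among the cells led by Mmp14, at Mmp14 values of at most 8.47. Mmp2 led in 10 and 11 cells, and Mmp3 in 4 and 1, while passage 1 cell 21 had no read of a member protease. That cell also had the fewest genes read of passage 1, at 4017. Of the summed protease level per kilobase, Mmp3 made up 48.6% at passage 1 and 4.40% at passage 2, Mmp2 33% and 51.4%, and Mmp14 18.4% and 44.1%. The Mmp3 sum rests on the 5 passage 1 cells named above, and the Mmp2 sum at passage 2 to 43.5% on passage 2 cell 2. With the longest transcript Mmp14 led in 9 and 34 cells.

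Among the inhibitors Timp1 led in 16 of 22 cells at passage 1, Timp3 in 5 and Timp2 in 1. At passage 2 Timp1 led in 21 of 45, Timp3 in 13 and Timp2 in 11. The lead was thus spread over the 3 genes at passage 2. With the longest transcript Timp1, Timp3 and Timp2 led in 11, 10 and 1 cells at passage 1 and in 18, 16 and 11 at passage 2. The median share of Timp2 in the inhibitor level was 17.2% at passage 1 and 27.9% at passage 2, that of Timp1 51.4% and 40.4%, and that of Timp3 26% and 18.9%. Each of these shares ranged widely over cells, that of Timp2 from 3.38% to 48.1% and from 4.82% to 95%.

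**Figure D4:**
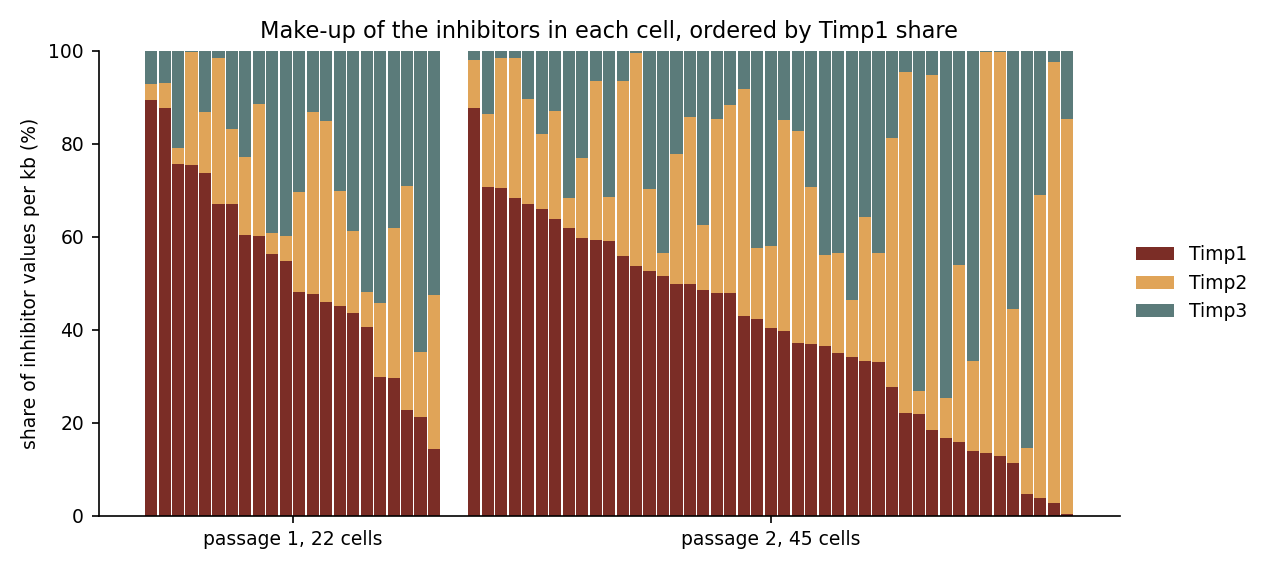
Share of Timp1, Timp2 and Timp3 in the summed inhibitor level per kilobase of exon union, with 1 bar per cell for 22 passage 1 and 45 passage 2 cells. Timp1 takes the greatest part in 16 of 22 passage 1 cells and in 21 of 45 passage 2 cells, and Timp2 in 1 and 11.

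Mmp14, Timp2 and Mmp2, the genes of the membrane complex that activates Mmp2, were together at 10 or above in 11 of 22 cells at passage 1 (50%, 28.2 to 71.8) and in 12 of 45 at passage 2 (26.7%, 14.6 to 41.9). These intervals, too, treat cells as independent draws and do not compare the passages. Cells with Mmp14 at 10 but not Mmp2 numbered 7 and 22, and cells with Mmp2 but not Mmp14 numbered 2 and 4. The most frequent state at passage 1 was all 3 genes at 10 or above. At passage 2 it was Mmp14 and Timp2 at 10 or above with Mmp2 below 10, which includes cells with Mmp2 reads. The level of Mmp2 and Mmp14 together, as a share of their sum with Timp2, had a median of 17.8% at passage 1 and 11.6% at passage 2. For Mmp14 against Timp2 alone the medians were 4.73% and 6.26%, while the means were 10.4% and 8.42% and the passage 2 cell was lower in 53.2% of pairs, so this share showed no single direction.

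Across cells the members did not vary as 1 group. The 15 Spearman correlations among the 6 genes ran from -0.24 to 0.46 over the 22 passage 1 cells and from -0.37 to 0.39 over the 45 passage 2 cells. These points share a library set, and correlations of members with total reads lay between -0.18 and 0.23 at passage 1 and between -0.08 and 0.08 at passage 2. Mmp2 and Mmp14 had -0.24 and 0.03, and Mmp14 and Timp2 -0.24 and 0.18. Timp1 and Timp3 had 0.17 and 0.39. The genes whose pattern was most like that of Timp1 in both passages were Vat1 (0.52 and 0.54), Cstb (0.49 and 0.49) and Col6a1 (0.51 and 0.48). For Mmp14 they were Kdelr3 (0.53 and 0.53), Gm20444 (0.56 and 0.45) and the receptor gene Pdgfrb (0.55 and 0.43). For Timp2 they were Renbp (0.47 and 0.48), Frmd4a (0.42 and 0.43) and C1ra (0.45 and 0.38). For Timp3, after Syn3, they were the matrix proteoglycan gene Prelp (0.57 and 0.51) and Gm15851 (0.65 and 0.47), which overlaps Prelp on the opposite strand. All of these genes are the top ranks among 8682 kept genes over the same cells, and what such a ranking reaches by chance was not tested. Passage 1 means were low for C1ra (1.53), Gm20444 (2.73), Gm15851 (5.37) and Vat1 (8.32).

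Summed marker levels moved with some members. The summed level of 10 fibroblast markers had a correlation of 0.55 at passage 1 and 0.44 at passage 2 with Timp1, and of 0.50 and 0.28 with Mmp14. That sum ran from 211 through a median of 2402 to 5393 at passage 1 and from 49 through a median of 2094 to 8348 at passage 2, and its part in the levels of Timp1 and Mmp14 was not tested. Single fibroblast markers differed. At passage 2 Timp1 had 0.38 with Col1a1, 0.27 with Dcn, 0.10 with Pdgfra and -0.08 with Lum. For Mmp14 these were 0.10, 0.11, 0.28 and 0.13. Timp2 had correlations of -0.49 and 0.08 with the summed smooth muscle markers. With the contractile gene Tagln they were -0.69 and -0.01, and with Acta2 -0.63 and 0.04. The Timp2 values were thus lower in passage 1 cells with more of these transcripts, with no such order at passage 2, and this difference between passages was not tested. The smooth muscle sum ran from 173 through a median of 1508 to 7811 and from 1371 through a median of 7019 to 28185. Without the endothelial marker cells the log2 ratio was -0.56 for Mmp2, -0.86 for Timp1 and 0.50 for Timp2.

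On chromosome 9 the members Mmp13, Mmp3 and Mmp10 lie among other metalloproteinase genes. In order along the chromosome, Mmp13 was read in 0 passage 1 and 1 passage 2 cells, Mmp12, the macrophage elastase gene, in 21 and 42, Mmp1b in 0 and 0, and Mmp3 in 10 and 5. Beyond Mmp3, Mmp1a and Mmp10 were read in no cell, Mmp8 in 2 and 0, Mmp27 in 5 and 4, and Mmp20 and Mmp7 in no cell. Genes next to each other thus went from no read to reads in nearly all cells. Mmp12 averaged 12.1 ± 11.4 and 31.7 ± 27, a log2 ratio of 1.32, the opposite direction to Mmp3 in the same cluster. Of the 10 macrophage and neutrophil markers, 5 had no read, while the other 5 were read, with Csf1r in 15 and 17 cells. The sum of all 10 ran from 0 through a median of 11.6 to 150 at passage 1. At passage 2 it ran from 0 through a median of 0.863 to 295. The part of such cells in the Mmp12 values was not tested. Mmp3 and Mmp27 were read together in 3 passage 1 cells, and Mmp3 and Mmp8 in 1.

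**Figure D5:**
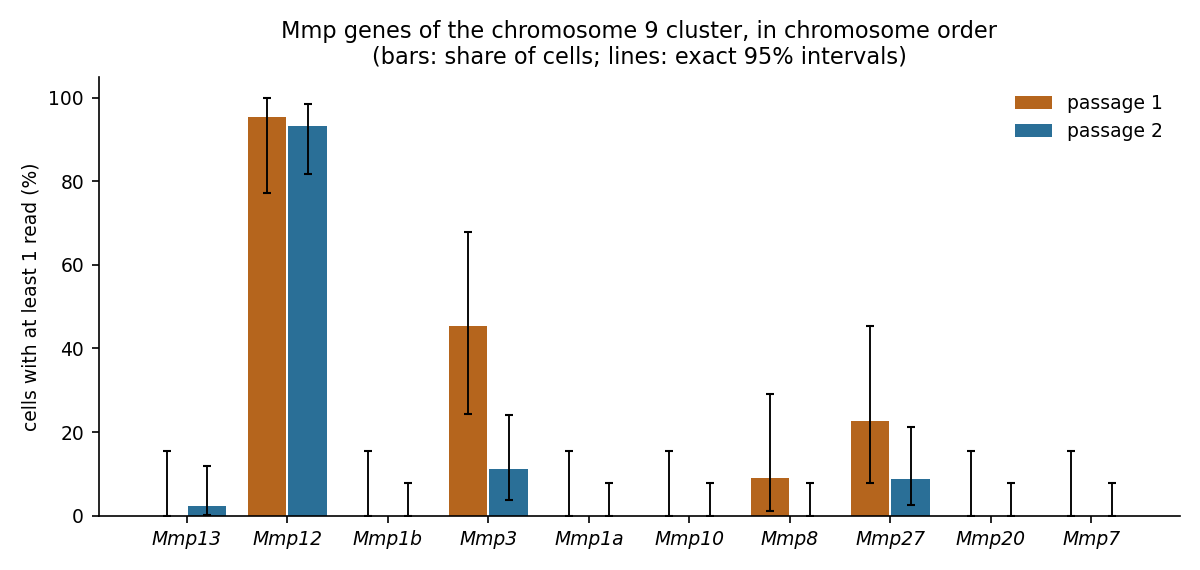
Percentage of passage 1 and passage 2 cells with a read of each metalloproteinase gene of the chromosome 9 cluster, in order along the chromosome, with lines for exact 95% intervals. Mmp12 is read in 21 of 22 and 42 of 45 cells, Mmp3 in 10 and 5, and Mmp1a, Mmp1b, Mmp7, Mmp10 and Mmp20 in none.

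Of 18 other genes of the family (metalloproteinases and Timp4), 5 passed the filter, 2 were past 2-fold higher at passage 2 and 0 lower, with a median of 0.84. Leaving out each cell in turn gave 1 to 2 higher and 0 to 1 lower. Mmp16, another membrane type, averaged 54.9 ± 86.1 and 79.6 ± 224, a log2 ratio of 0.53, which was -0.08 without passage 2 cell 41. Mmp23 averaged 44.3 ± 65.2 and 80.3 ± 117 (0.84), and Mmp19 35 ± 67.3 and 20.9 ± 46.3 (-0.71). The other gene past 2-fold besides Mmp12 was Mmp11, at 7.81 ± 23.6 and 17 ± 44.9 (1.03). That ratio ran from 0.57 without passage 2 cell 37 to 1.95 without passage 1 cell 9, so the call rests on single cells. Mmp1a, Mmp1b, Mmp7, Mmp15 and Mmp20 had no read.

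Of 20 genes of activation, docking and clearance of metalloproteinases, 16 passed the filter, 6 were past 2-fold higher at passage 2 and 3 lower, with a median of 0.46, and with each cell left out 4 to 6 were higher and 2 to 4 lower. The proprotein convertase gene Pcsk5 had the highest log2 ratio (4.21, or 5.85 without passage 1 cell 15) and the plasminogen activator gene Plat the lowest (-1.60, with means of 58.2 ± 157 and 18.5 ± 77.4). The ratio of Plat was -0.43 without passage 1 cell 13, an endothelial marker cell that held 58.4% of the passage 1 sum, and -2.64 without passage 2 cell 31, so its call and its rank rest on single cells. The urokinase receptor gene Plaur was also lower, at 68.9 ± 96.1 and 22.6 ± 51.1 (-1.57). Reck, a membrane-anchored inhibitor of metalloproteinases, averaged 81.5 ± 128 and 174 ± 248 (1.08, or 0.94 to 1.54 with a cell left out). Furin, the convertase of Mmp14, averaged 9.09 ± 11.3 and 7.79 ± 11.1 and did not pass the filter. Thbs1, whose product thrombospondin 1 binds metalloproteinases, averaged 1004 ± 1095 and 2036 ± 1899 (1.02), and Cav1, of caveolae, 1786 ± 1884 and 859 ± 1461 (-1.05). With a cell left out these ratios ran from 0.91 to 1.22 and from -1.25 to -0.88, on both sides of 2-fold.

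Of 15 matrix substrates, 15 passed the filter, 6 were past 2-fold higher at passage 2 and 2 lower, with a median of 0.19, and with each cell left out 5 to 6 were higher and 2 to 4 lower. Elastin (Eln, 3.99) had the highest log2 ratio and osteopontin (Spp1, -4.34) the lowest, and those of fibronectin (Fn1) and biglycan (Bgn) were 1.13 and 0.68. Eln was at 4.94 without passage 1 cell 9 and Spp1 at -5.96 without passage 2 cell 36. Of 12 AP-1 and Ets factors, 9 passed the filter, 4 were past 2-fold higher and 1 lower, with a median of 0.70. Junb had the highest ratio (2.15), at 28.5 ± 41.7 and 129.9 ± 149. Fosl2 averaged 91.1 ± 107 and 248 ± 319 (1.43), Fos 333 ± 427 and 764 ± 630.0 (1.20), and Etv5 54.0 ± 112 and 18.3 ± 43.6 (-1.51). Without passage 1 cell 4 the ratio of Etv5 was -0.85, within 2-fold, and with each cell left out 4 genes of the list were higher and 0 to 2 lower. These counts stand beside the shares of 14.4% and 19.4% for all genes.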

How the data were processed

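Gene counts of 67 single-cell libraries were read from 1 deposited table of signal values, in which the authors divided each cell's counts by 1 DESeq size factor, per the submitters' processing notes and the values. The notes also name BWA, SAMtools, HTSeq and GRCm38, and the handling of strand and of multi-mapping reads is not given in the sources used here. Division of a column by its smallest value returned read counts, whole to a tolerance of 0.001 for 100% of the 509576 nonzero values. Symbols came from GENCODE M21 (37607 of 39179 rows).

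Levels are means over cells with SD, ratios use a pseudocount of 1, and between-gene levels were divided by exon union length. With 1 sample per passage no test was run. Shares have exact 95% Clopper-Pearson intervals, and summed reads exact binomial intervals. The genes, the lists and the comparisons were chosen with earlier results of these data known. Besides the 9 genes, those named are, from each list of related genes, the kept genes with the highest means and the extreme ratios, and up to 3 genes with the highest lower correlation over both passages. Mmp11, Plaur, Reck, Furin, Tagln, Dcn and Lum were named after their values were seen. Cells are named where leaving them out moved a member's ratio by over 1.5-fold or where they held 50% or more of a member's sum, and others after their values were seen. Leaving out each cell for the genes of other lists was added after seeing the data.

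Of the marker lists, 9 of 10 smooth muscle genes passed the filter (7 past 2-fold higher, 0 lower, median log2 ratio 2.22), 7 of 10 endothelial genes (1 and 6, -1.69), 9 of 10 fibroblast genes (4 and 1, 0.43), and 1 of 10 macrophage and neutrophil genes (0 and 0, -0.79). None of 15 background genes passed. Both cell cycle genes (Mki67, Top2a) were past 2-fold lower (median -3.82). Among all kept genes 14.4% were past 2-fold higher and 19.4% past 2-fold lower. No doublet caller was run on 67 cells. Other scalings, filters, pseudocounts, summaries, lengths and sets of cells were tried. The log2 ratio of means was tested on simulated counts with set ratios, and the other calculations were not. The software was Python 3.11.15 with scipy 1.17.1, pandas 2.3.3, numpy 2.4.6 and matplotlib 3.10.9, and edgeR 4.0.16 in R 4.3.3 for TMM scaling alone.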

Additional observations from a re-analysis of the deposited data

How the results depend on the processing

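The count of members past 2-fold lower at passage 2 was 1. It was 2, with Mmp2 joining Mmp3, when the 25% of cells with fewest genes read were removed per passage (Mmp2 at -1.43) and with means of log2(value + 1) (Mmp2 at -1.27). It was 0 with a stricter filter (a mean of 50 and a read in 50% of cells), which Mmp3 did not pass. Leaving out each cell in turn gave 1 to 2, with 2 without passage 2 cell 2. The count past 2-fold higher was 0 throughout. The difference in median protease share (-2.96 percentage points) was below 0 under each setting that could change it, from -7.37 to -1.05. Scaling by total reads or by TMM multiplies all genes of a cell alike and cancels in the share. These settings left the difference at -2.96 by construction and do not test it. With each cell left out it ran from -3.43 to -2.48, where a median can move only as far as a neighbouring cell's value. The difference was -2.69 with the value of Syn3 added to that of Timp3, an alternative chosen after seeing the data. TMM scaling moved the median log2 ratio of all kept genes from -0.11 to 0.00, and medians over cells moved it to -0.60. Under medians over cells the count was again 1, but the gene was Mmp2 (-3.30), with Mmp3 at 0. No paired analysis was possible because the replicate numbers were given in accession order and name cells only. Depth limits statements on Mmp9, Mmp10 and Mmp13, and 1 sample per passage limits all of them.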

Other observations

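The 2 highest protease shares belonged to passage 2 cells in which Timp1 and Timp3 were low. Both inhibitors are part of the share, so low values of them raise it by construction. In passage 2 cell 2 the share was 35.8%, with normalized counts of 1307 for Mmp2, 351 for Mmp14 and 2706 for Timp2, each but Mmp14 the highest of any cell, against 91.9 for Timp1 and 14.1 for Timp3. In passage 2 cell 11, an endothelial marker cell, the share was 30.3%, with 246 for Mmp2, 13.7 for Mmp14, 641 for Timp2, 4.12 for Timp1 and 32.9 for Timp3. The next highest share, 18.9% in passage 2 cell 14, came with Timp1 at 389, above the passage 2 median of 207, and Timp3 at 81.6. At the other end, passage 2 cell 45 had a share of 0.0124%, with 1 read of Mmp14, no read of Mmp2 and the highest Timp3 value of passage 2 (8033), and passage 2 cell 13, which had 4163 genes read against a passage 2 median of 7257, had 0.0245%, with Timp3 at 6242. These cells were chosen after their values were seen.

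Passage 1 cell 10 held the highest Mmp3 value (551) together with no read of Mmp2, Mmp14 at 6.45 and Timp3 at 8427, and passage 1 cell 8 held the highest Timp1 value (2124) together with Mmp3 at 379. Over the 22 passage 1 cells the Spearman correlation of Mmp3 was 0.46 with Timp1 and 0.45 with Timp3, and over the 45 passage 2 cells -0.09 and -0.08, where Mmp3 was read in 5 cells.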
